A study of Mus musculus with 10 samples.

Results

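The genes described here are 10 markers of T cells and cytotoxic lymphocytes, chosen by symbol from the 24062 genes counted in each library. They are Cd3d, Cd3e, Cd3g, Cd4, Cd8a, Gzma, Gzmb, Ncr1, Itgae and Ifng, and each was present in all 10 count files. The libraries were made from the jejunum, the middle stretch of the small intestine, of mice at postnatal day 5 on the C57BL/6 background. Each group had 5 libraries. The WT group was wild type. The KSR23 group carried a cre under control of the keratin 14 promoter together with an interleukin-23 (IL-23) cassette in the ROSA26 locus that stays silent until cre removes a STOP sequence. Keratin 14 is a keratin of stratified epithelium and is not typical of the jejunal lining. The labels do not say how cre or the cassette was treated in the WT mice. Of the genes of the 2 IL-23 subunits, Il12b (p40) was higher in KSR23 jejunum by a log2 fold change of 2.32 (adjusted p = 0.00364) and Il23a (p19) differed by 0.95 (adjusted p = 0.27). Il12b had 0 to 5 counts in WT libraries and 9 to 40 in KSR23 libraries.

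T cells recognise antigen through a receptor whose signal is carried by the CD3 chains, and the coreceptors CD4 and CD8 help that receptor bind class II and class I molecules. Cytotoxic lymphocytes, which include CD8 T cells, natural killer cells and many lymphocytes lodged between intestinal epithelial cells, store granzymes in granules and secrete interferon gamma. IL-23 is best known for driving type 3 innate lymphoid cells and related T cells to make IL-22 and IL-17.

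The WT libraries held 25477722 to 32030950 counts in genes and the KSR23 libraries 31195111 to 60948534, so depth went with group. The 10 genes together took 898 to 1069 counts in WT libraries and 527 to 1253 in KSR23 libraries, so they were rare transcripts. Values below are in CPM, the counts of a gene scaled to a common library total after TMM normalization, and 3 counts, the limit that a count of 0 allows, were worth 0.0427 to 0.119 CPM. Summed, the 10 genes were at 30.5 to 38.9 CPM in WT libraries and at 17 to 26.2 CPM in KSR23 libraries. Gzma had the highest mean of them in both groups. Differences are log2 fold changes of KSR23 over WT with their SE, and adjusted p is the Benjamini-Hochberg value of the edgeR likelihood ratio test over 17632 genes. The labels name no litters, so p-values measure the spread between these libraries. Replicates 4 and 5 of both groups stood apart. With 5 interchangeable libraries in a group, 1 of them would hold the group's highest or lowest value at 40% of genes. Over 9737 genes above a mean of 5 CPM, this share was 45.7 to 75.6% for replicates 1 to 3 and 8.54 to 18.4% for replicates 4 and 5, so replicates 4 and 5 mostly lay between the others. How they came to lie there was not tested, and for each of the 10 genes the value in replicates 1 to 3 only is given too. Epithelial markers were abundant, with a summed 6588 to 16724 CPM over 9 genes. A bulk library cannot tell fewer cells of a type from less RNA per cell.

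All 10 genes passed the filter on low counts, and 5 changed. Gzma, Cd3g and Cd8a fell, and Itgae and Ifng rose. Cd3d, Cd3e, Cd4, Gzmb and Ncr1 did not pass the test. Across all tested genes 18.5% were called, 9.73% higher and 8.76% lower. The balance of all calls depended on scaling, with 1716 higher and 1545 lower under TMM and 1414 higher and 1858 lower under library totals alone. The directions of the 5 called genes were the same under both. By the quasi-likelihood F test, which called 15.4% of all genes, 4 of the 10 were called and Cd8a was not (adjusted p = 0.0514). CPM did not overlap between the groups for the same 5 genes, against 14.4% of all tested genes. The median log2 fold change was -0.09 over the 10 genes and 0.03 over all tested genes. With replicates 1 to 3 alone, 2 of the 10 were called (Gzma and Ifng), where 3.36% of all genes were. The quasi-likelihood test on those libraries called 0 of the 10, with 3 at an unadjusted p under 0.05, and 0.812% of all genes.

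**Figure D1:**
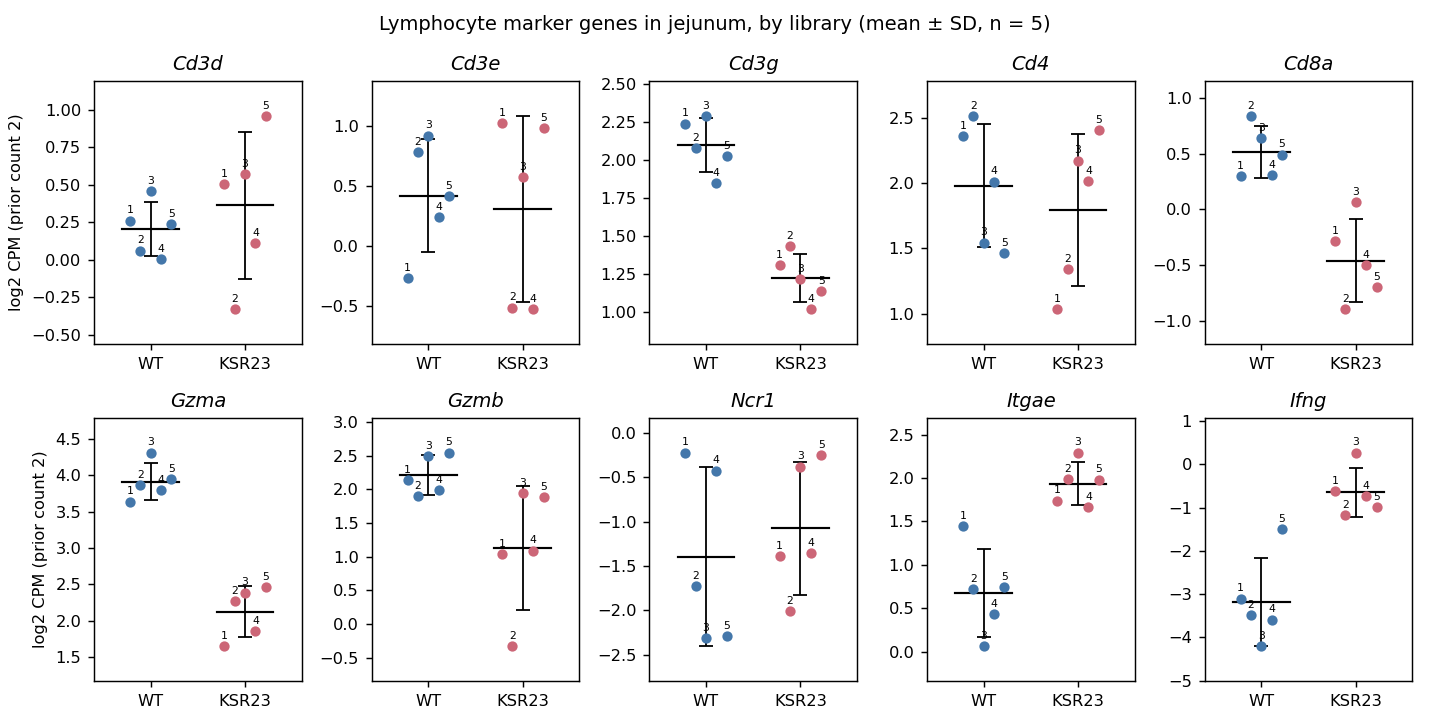
Each panel shows 1 gene, with log2 CPM (prior count 2) on the vertical axis and the 5 WT (blue) and 5 KSR23 (red) libraries numbered by replicate; bars are the mean ± SD. The groups are separate for Cd3g, Cd8a, Gzma, Itgae and Ifng and overlap for the other 5 genes.

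Of the 3 CD3 chains, Cd3g fell and Cd3d and Cd3e did not pass the test. CD3 gamma and CD3 delta each pair with CD3 epsilon in the T cell receptor complex, and their genes lie side by side on chromosome 9. Cd3g (chr9:44969572-44980431, minus strand, mm10) and Cd3d (chr9:44981786-44987339, plus strand) start 1355 bases apart and are read in opposite directions. Cd3e (chr9:44998740-45009627, minus strand) ends 11.4 kb from the end of Cd3d.

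Cd3g was counted at 4.67, 4.17, 4.84, 3.54 and 4.02 CPM in WT replicates 1 to 5 and at 2.42, 2.64, 2.27, 1.97 and 2.15 CPM in KSR23 replicates 1 to 5. All KSR23 libraries lay below all WT libraries. The mean fell from 4.25 ± 0.523 to 2.29 ± 0.259 CPM (SD, n = 5), and the log2 fold change was -0.89 (SE 0.27, adjusted p = 0.01). Replicates 1 to 3 alone gave a near value, -0.87, with an adjusted p of 0.499, and without KSR23 replicate 4 the adjusted p was 0.0603.

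Cd3d was at 1.15, 0.99, 1.32, 0.95 and 1.13 CPM in WT and at 1.37, 0.742, 1.43, 1.03 and 1.89 CPM in KSR23. The groups overlapped, and the KSR23 libraries covered a wider range on both sides. The log2 fold change of Cd3d was 0.22 (95% interval -0.47 to 0.91, adjusted p = 0.729), or 0.07 in replicates 1 to 3.

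Cd3e was at 0.774, 1.66, 1.83, 1.12 and 1.28 CPM in WT and at 1.98, 0.645, 1.43, 0.638 and 1.92 CPM in KSR23. In KSR23, replicates 2 and 4 lay below the WT range, replicates 1 and 5 above it and replicate 3 within it. The log2 fold change of Cd3e was -0.01 (95% interval -0.88 to 0.86, adjusted p = 0.994), or -0.03 in replicates 1 to 3, and differences within that interval were not detectable here. Of the 75-base stretches of Cd3e, 1.55% are shared with the gene model Gm48719.

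The ratio of Cd3g to Cd3d within a library does not depend on scaling. On the log2 scale of counts (0.5 added) it was 1.93 ± 0.10 in WT and 0.88 ± 0.59 in KSR23 (SD, n = 5), a difference of -1.05. The groups were barely apart, since the lowest WT value was 1.82 and KSR23 replicate 2 was at 1.81. With replicates 1 to 3 alone the difference was -0.88. The ratio of Cd3g to Cd3e was 1.71 ± 0.50 in WT and 0.94 ± 0.82 in KSR23, with overlap. All 6 ratios computed were chosen after values were seen, so they are given as descriptions with no test.

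**Figure D2:**
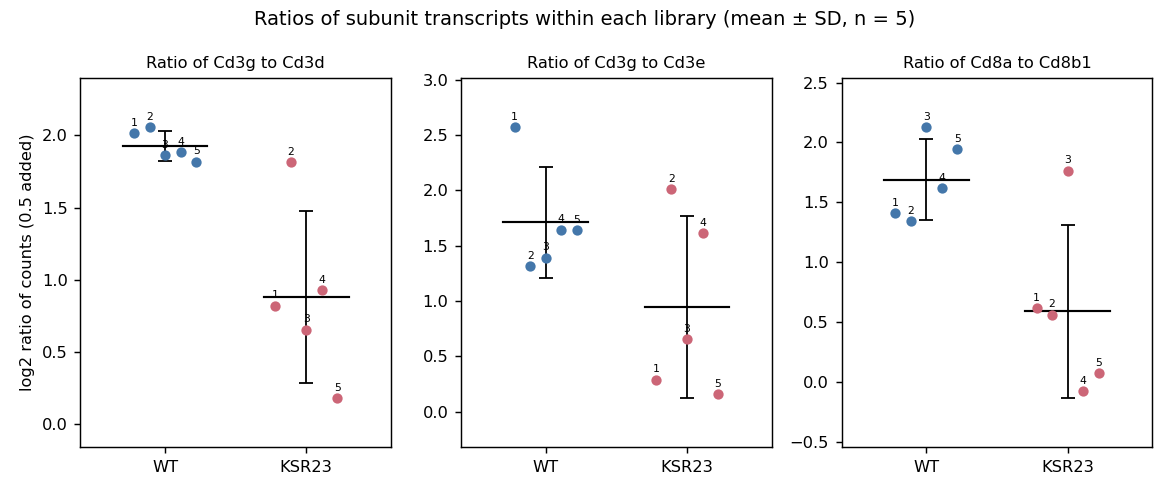
The vertical axis gives the log2 ratio of 2 genes' counts within each library (0.5 added) for Cd3g to Cd3d, Cd3g to Cd3e and Cd8a to Cd8b1, with libraries numbered by replicate and bars at the mean ± SD (n = 5). WT libraries cluster tightly for Cd3g to Cd3d, at 1.82 to 2.06, and KSR23 libraries spread from 0.18 to 1.81.

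Because Cd3g and Cd3d share the stretch between their starts, the 250 bases before each start are shown (RefSeq GRCm38.p6, read 5′ to 3′ on the gene's strand). They cover chr9:44980432-44980681 on the minus strand for Cd3g and chr9:44981536-44981785 on the plus strand for Cd3d. Capitals mark matches, on either strand, to letters bound by T-box factors (AGGTGT, in 11.9% of 32536 mouse promoters of this length), STAT factors (TTCNNNGAA, 7.04%) and Ets factors (AGGAAG, 29.6%).
Cd3g: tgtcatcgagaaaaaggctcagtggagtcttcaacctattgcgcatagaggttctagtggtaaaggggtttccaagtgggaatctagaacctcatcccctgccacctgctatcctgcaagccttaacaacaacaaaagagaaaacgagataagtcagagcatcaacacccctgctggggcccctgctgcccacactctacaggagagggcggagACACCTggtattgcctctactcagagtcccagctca
Cd3d: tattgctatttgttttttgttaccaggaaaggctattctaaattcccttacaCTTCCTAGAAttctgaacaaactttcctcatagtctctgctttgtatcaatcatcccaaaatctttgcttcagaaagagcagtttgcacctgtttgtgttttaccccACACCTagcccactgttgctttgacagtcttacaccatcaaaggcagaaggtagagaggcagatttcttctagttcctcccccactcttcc
Both windows hold the T-box letters, at 36 to 31 bases before the start of Cd3g and at 91 to 86 before that of Cd3d. The Cd3d window also holds the STAT letters at 197 to 189 bases before its start, which overlap the Ets letters at 198 to 193. Promoter entries were matched for 8 of the 10 genes. The other letters searched were those of Runx (ACCACA, 14%), AP-1 (TGANTCA, 6.73%) and the E-box CAGCTG (13.1%), and none of these is in either window.

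Of the coreceptors, Cd8a fell and Cd4 did not pass the test. Cd8a (chr6:71373427-71379173, plus strand) encodes the alpha chain of CD8, which occurs as an alpha-beta pair on conventional cytotoxic T cells and as an alpha-alpha pair on many intraepithelial lymphocytes. It was at 1.18, 1.73, 1.5, 1.18 and 1.35 CPM in WT and at 0.768, 0.484, 0.994, 0.655 and 0.565 CPM in KSR23, with no overlap. The mean fell from 1.39 ± 0.235 to 0.693 ± 0.199 CPM (SD, n = 5), with a log2 difference of -1.0 (SE 0.34, adjusted p = 0.0231). With replicates 1 to 3 alone the value for Cd8a was -0.94 (adjusted p = 0.568), and the call was lost in 7 of 10 fits that each left out 1 library, the exceptions being those without WT replicate 1, KSR23 replicate 1 or KSR23 replicate 3.

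Cd8b1, which encodes the beta chain, differed by 0.15 (adjusted p = 0.865). The log2 ratio of Cd8a to Cd8b1 was 1.69 ± 0.34 in WT and 0.59 ± 0.72 in KSR23 (SD, n = 5), a difference of -1.10. KSR23 replicate 3 lay within the WT range, and the other KSR23 libraries lay below it.

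Cd4 (chr6:124864692-124888221, minus strand) marks helper and regulatory T cells and is also made by some innate lymphoid cells and myeloid cells. It was at 5.08, 5.66, 2.86, 3.97 and 2.7 CPM in WT and at 1.99, 2.48, 4.45, 3.98 and 5.25 CPM in KSR23. High and low libraries occurred in both groups. The log2 fold change of Cd4 was -0.16 (95% interval -0.89 to 0.57, adjusted p = 0.82), and it was -0.58 (adjusted p = 0.784) with replicates 1 to 3 alone. The log2 ratio of Cd8a to Cd4 was -1.49 ± 0.51 in WT and -2.32 ± 0.66 in KSR23 (SD, n = 5), with overlap.

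Gzma had the largest fall of the 10 genes. Granzyme A is a serine protease of cytotoxic granules that is abundant in natural killer cells and in intraepithelial lymphocytes. Gzma (chr13:113093825-113100981, minus strand) was at 12.4, 14.5, 19.8, 13.8 and 15.4 CPM in WT and at 3.09, 4.77, 5.17, 3.56 and 5.45 CPM in KSR23. The highest KSR23 library lay well under the lowest WT library. The mean fell from 15.2 ± 2.8 to 4.41 ± 1.03 CPM (SD, n = 5), or by 1.79 on the log2 scale (SE 0.30 and adjusted p = 1.84e-07). In replicates 1 to 3 alone Gzma was again called by likelihood ratio (-1.81, adjusted p = 0.0403), though not by quasi-likelihood (adjusted p = 0.137).

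Gzmb (chr14:56258838-56262260, minus strand) encodes granzyme B, the protease that triggers death of target cells by cleaving caspases. It was at 4.33, 3.68, 5.58, 3.92 and 5.78 CPM in WT and at 2.01, 0.742, 3.78, 2.07 and 3.64 CPM in KSR23. The groups overlapped only through KSR23 replicate 3, which exceeded WT replicate 2. The log2 fold change of Gzmb was -0.93 (SE 0.41, 95% interval -1.74 to -0.12) and the adjusted p was 0.103. In replicates 1 to 3 it was -1.03 (adjusted p = 0.567). The log2 ratio of Gzma to Gzmb was 1.71 ± 0.24 in WT and 1.02 ± 0.93 in KSR23 (SD, n = 5), with overlap.

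The promoter of Gzma is shown because Gzma fell most of the 10 and its window holds 2 of the searched motifs, with the matches in capitals (chr13:113100982-113101231, minus strand, 250 bases before the start, RefSeq GRCm38.p6).
Gzma: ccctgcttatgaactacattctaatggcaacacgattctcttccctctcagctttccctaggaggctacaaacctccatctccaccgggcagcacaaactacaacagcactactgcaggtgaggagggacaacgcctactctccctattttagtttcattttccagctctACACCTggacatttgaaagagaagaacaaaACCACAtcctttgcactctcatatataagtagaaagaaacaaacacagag
The T-box letters lie 80 to 75 bases before the start and the Runx letters (ACCACA) lie 50 to 45 bases before it. These matches describe the letters and were not measured as bound sites.

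Ncr1 (chr7:4337724-4345164, plus strand) encodes NKp46, a receptor of natural killer cells and of part of the type 3 innate lymphoid cells. It was at 0.805, 0.248, 0.147, 0.691 and 0.15 CPM in WT and at 0.327, 0.193, 0.715, 0.336 and 0.79 CPM in KSR23, from 4 to 28 counts per library. The KSR23 values lay within the WT range. The log2 fold change of Ncr1 was 0.18 with a 95% interval of -1.06 to 1.42 (adjusted p = 0.886), or 0.05 in replicates 1 to 3, and changes within that interval were not detectable at this depth.

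Itgae was, with Ifng, a gene of the 10 that rose. It encodes CD103, the integrin alpha E chain, which pairs with beta 7 and holds intraepithelial lymphocytes and some dendritic cells to E-cadherin on the epithelium. Itgae (chr11:73090583-73147446, plus strand) was at 2.66, 1.59, 0.991, 1.3 and 1.61 CPM in WT and at 3.29, 3.9, 4.85, 3.12 and 3.9 CPM in KSR23. All KSR23 libraries lay above all WT libraries, of which replicate 1 came nearest. The mean rose from 1.63 ± 0.63 to 3.81 ± 0.68 CPM (SD, n = 5), and the log2 fold change was 1.22 (SE 0.34, adjusted p = 0.00415). Replicates 1 to 3 alone gave 1.23 (adjusted p = 0.348). Itgae overlaps the gene Haspin, and the strand setting of the counting was not stated. Of the 75-base stretches of Itgae transcripts, 0% are shared with transcripts of another gene. The level of Haspin was not examined. The partner chain Itgb7 differed by 0.37 (adjusted p = 0.765). The log2 ratio of Itgae to Itgb7 was -0.20 ± 1.36 in WT and 1.06 ± 1.67 in KSR23 (SD, n = 5), with overlap, a difference of 1.26, or 2.38 without KSR23 replicates 1 and 4. The dendritic cell markers Xcr1 and Clec9a differed by 0.71 (adjusted p = 0.284) and 0.14 (adjusted p = 0.859).

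Ifng rose from near the detection limit. It encodes interferon gamma, the type 2 interferon that activates macrophages and induces antigen presentation and guanylate-binding proteins. Ifng (chr10:118441046-118445892, plus strand) had 2, 1, 0, 1 and 8 counts in WT and 42, 12, 29, 31 and 16 counts in KSR23. In CPM these were 0.0619, 0.0354, 0, 0.0288 and 0.3 in WT and 0.597, 0.387, 1.15, 0.549 and 0.452 in KSR23. WT replicate 5 held most of the WT counts, and the groups did not overlap. The log2 fold change of Ifng was 2.86 (SE 0.75, adjusted p = 0.00167), a 7.25-fold difference. With replicates 1 to 3 alone it was 4.30 (adjusted p = 0.00504 by likelihood ratio and 0.163 by quasi-likelihood), and it was 4.13 without WT replicate 5. Of its 75-base stretches, 16.2% are shared with the overlapping gene model Gm49751.

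The promoter of Ifng is shown for comparison with the genes that fell (chr10:118440796-118441045, plus strand, 250 bases before the start, RefSeq GRCm38.p6), with the only match of the search in capitals.
Ifng: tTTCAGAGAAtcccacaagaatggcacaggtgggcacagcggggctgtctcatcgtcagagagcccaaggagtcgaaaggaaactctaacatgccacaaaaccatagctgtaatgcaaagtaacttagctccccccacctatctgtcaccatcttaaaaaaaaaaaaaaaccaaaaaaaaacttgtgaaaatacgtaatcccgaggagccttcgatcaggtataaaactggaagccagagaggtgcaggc
This match is to the STAT letters at 249 to 241 bases before the start. Il22, which lies 231 kb from Ifng on the same chromosome, had 0 or 1 count in WT libraries and 137 to 329 counts in KSR23 libraries.

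**Figure D3:**
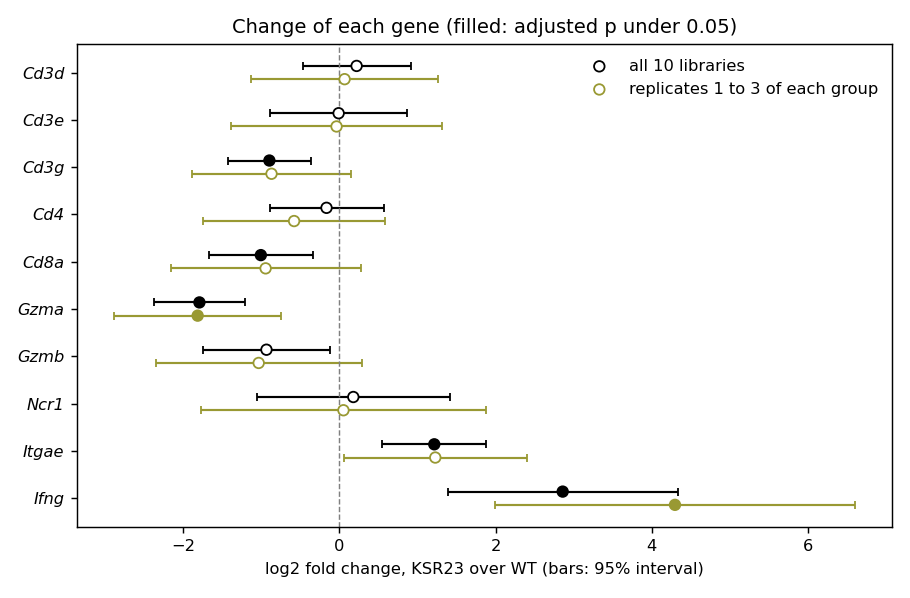
The horizontal axis gives the log2 fold change of KSR23 over WT for each of the 10 genes, with 95% intervals as bars, from all 10 libraries (black) and from replicates 1 to 3 of each group (olive); filled points had an adjusted p under the 0.05 threshold. Point estimates are similar in both fits for most genes, and the intervals from replicates 1 to 3 are wider.

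Levels of different genes were compared per length, as RPKM, which is CPM divided by the length of the gene's exon model in kilobases. In WT jejunum Gzma stood highest at 15.1 ± 2.78 RPKM (SD, n = 5), above Cd3g at 4.15 ± 0.511, with no overlap of libraries. Cd3g and Gzmb (3.24 ± 0.672) overlapped, and Gzmb was above Cd4 (1.30 ± 0.422) without overlap. Then came Cd3e, Cd3d, Cd8a, Itgae, Ncr1 and Ifng, from 0.912 ± 0.29 down to 0.0706 ± 0.101 RPKM, and among these only Cd3d and Cd8a were neighbours without overlap. In KSR23 jejunum the order began with the same 4 genes, Gzma at 4.38 ± 1.03, Cd3g at 2.24 ± 0.253, Gzmb at 1.70 ± 0.883 and Cd4 at 1.17 ± 0.438 RPKM. Itgae came next at 0.991 ± 0.177 RPKM, and Cd8a stood last at 0.221 ± 0.0634 RPKM. Chains of the same receptor complex were at unequal levels, with Cd3g above Cd3d and Cd3e in the mean of both groups.

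The companion genes were read from 8 lists of related markers, which held 172 genes, of which 147 were tested and 48 called, 32 higher and 16 lower, where 18.5% of all genes were called, 9.73% higher and 8.76% lower. In replicates 1 to 3 alone, where 3.36% of all genes were called, 9 of them were: Ctla4, Il4, Unc13d, Hcst, Gpr55, Il18, Ido1, Il22 and Id2. The other companion genes named below were not called there.

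Among genes of T cell receptor signalling, 2 rose and 1 fell of 21 tested, with a median log2 fold change of 0.33, a share of calls no larger than the 18.5% of all genes. Without KSR23 replicates 1 and 4 the balance turned, to 1 higher and 3 lower. The surface receptors Cd5 (1.49, adjusted p = 0.0233) and Cd6 (2.33, adjusted p = 0.00912) rose. Neither passed the quasi-likelihood test, and without KSR23 replicates 1 and 4 their adjusted p were 0.0604 and 0.0555. Fyb, an adaptor of T cells and myeloid cells, fell by 0.97 on the log2 scale (adjusted p = 0.00373). The kinase Lck (0.33) and the adaptor Lcp2 (-0.07) were not called. Of the 27 genes of this list, 21 are in the count files. The constant genes of the T cell receptor chains are not in them and could not be tested.

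Of 15 tested markers of helper, regulatory and recirculating T cells, 3 rose and 1 fell. Ctla4, an inhibitory receptor of regulatory and activated T cells, rose from 0.0843 to 1.05 CPM (log2 fold change 3.61, adjusted p = 1.76e-07) and was also called with replicates 1 to 3 alone (adjusted p = 0.0279). Ctla4 had only 1 to 5 counts in WT libraries and 21 to 60 in KSR23 libraries. Il2ra, the high-affinity IL-2 receptor chain, rose by 1.48 (adjusted p = 0.0377) and the homing receptor Ccr7 by 1.42 (adjusted p = 0.039). Neither passed the quasi-likelihood test (0.0778 and 0.0765), and Ccr7 was not called without KSR23 replicates 1 and 4 (0.0946). The calls of the list went from 4 to 2 without WT replicate 2 or 5 or KSR23 replicate 2 or 4. The cytokine gene Il4 had 14, 28, 14, 6 and 8 counts in WT and 0, 0, 0, 8 and 0 counts in KSR23 (log2 fold change -3.76, adjusted p = 0.00405). S1pr1 (0.28) and Tnfrsf18 (0.14) were not called.

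The cytotoxic granule list split evenly, with 3 higher and 3 lower of 13 tested and a median of -0.06. Nkg7, a granule membrane protein, fell from 4.72 to 2.21 CPM (-1.09, adjusted p = 0.00167), and Srgn, the proteoglycan that packs granzymes, fell from 34.9 to 18.7 CPM (-0.90, adjusted p = 0.0207, or 0.142 without KSR23 replicates 1 and 4). Serpinb6b, a protease inhibitor, fell by 1.66 on the log2 scale (adjusted p = 1.29e-06). The genes that rose act in granule maturation and release and are also used outside lymphocytes. They were Ctsc, which activates granzymes (0.79, adjusted p = 0.0204), Rab27a (1.12, adjusted p = 0.00406) and Unc13d (1.79, adjusted p = 2.75e-06). Perforin (Prf1), with 0 to 18 counts per library, was not called (0.22, adjusted p = 0.934), nor were Stxbp2 (0.08) and Serpinb9 (-0.62).

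Of 18 tested natural killer receptors and regulators, 1 rose and 3 fell, a share near the 18.5% of all genes. The adaptors Tyrobp and Hcst, which carry signals of activating receptors, fell from 81.3 to 35.4 CPM (-1.20, adjusted p = 0.000253) and from 4.11 to 1.05 CPM (-1.96, adjusted p = 1.41e-06). The kinase Txk also fell (-1.25, adjusted p = 0.00829). Il2rb, a chain of the IL-2 and IL-15 receptors, rose from 1.49 to 4.8 CPM (1.68, adjusted p = 0.000307). Cd244 (0.40) and Klrb1b (0.19) were not called. Hcst was the gene of this list called with replicates 1 to 3 alone (adjusted p = 0.016), and Tyrobp is also a myeloid gene.

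Of 25 genes for homing and retention of intraepithelial lymphocytes, 4 rose and 4 fell, with a median of -0.08. The 3 with the smallest p among those that rose were Gpr55 (2.32, adjusted p = 0.000326), the epithelial butyrophilin-like gene Btnl4 (1.14, adjusted p = 0.00242) and the retention marker Cd69 (1.35, adjusted p = 0.0144). Those that fell were led by Madcam1, the vascular ligand of integrin alpha 4 beta 7 (-0.82, adjusted p = 0.00982), Ccl25, the epithelial chemokine that draws CCR9-bearing lymphocytes (476 to 247 CPM, -0.95, adjusted p = 0.0108), and the cytotoxic-lymphocyte chemokine Xcl1 (-1.85, adjusted p = 0.0242). Btnl1 (-0.28) and Btnl2 (0.18) were not called. The 8 calls of the list went to 4 without WT replicate 5 or KSR23 replicate 4, to 5 without WT replicate 1 or 3 or KSR23 replicate 2, and to 3 without KSR23 replicates 1 and 4, where among others Ccl25 (adjusted p = 0.0867), Cd69 (0.0677) and Xcl1 (0.154) were lost. Xcl1 also missed the quasi-likelihood threshold (0.0863).

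The called genes that induce or respond to interferon gamma all rose. Of 28 tested, 14 rose and 0 fell in the edgeR likelihood ratio fit, with 15 higher and 0 lower at an unadjusted p under 0.05. The quasi-likelihood test gave those same counts, and 26 genes had a positive log2 fold change, with a median of 0.90 beside 0.03 for all genes. Il18, a cytokine that induces interferon gamma, rose from 25.7 to 473 CPM (4.20, adjusted p = 3.51e-26). The interferon-induced genes Ido1 (0.138 to 3.24 CPM, 4.50, adjusted p = 2.27e-13) and Gbp2 (9.68 to 30 CPM, 1.63, adjusted p = 2.15e-06) rose too. Ido1 had only 2 to 7 counts in WT libraries. The transcription factors Irf1 (0.64, adjusted p = 0.194) and Irf8 (0.49, adjusted p = 0.673) were not called. Il18 and Ido1 were also called in replicates 1 to 3 alone. Without KSR23 replicates 1 and 4 there were 11 higher and 1 lower, the receptor chain Ifngr2 (-2.22, adjusted p = 0.00768), named after its values were seen, which differed by -0.15 in all libraries.

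Of 20 genes of type 3 innate lymphoid and gamma delta T cells, 5 rose and 1 fell. Besides Il22, these were Il17f (3.42, adjusted p = 0.00343), the chemokine receptor Ccr6 (1.62, adjusted p = 0.00318), the transcription factor Zbtb16 (2.99, adjusted p = 0.00129) and the kinase Blk (1.90, adjusted p = 0.00348). Il17f had 2, 5, 0, 0 and 0 counts in WT and 8 to 38 in KSR23. The size of its change rests on WT counts near the detection limit (SE 0.96). Id2, a regulator needed by innate lymphoid cells and also made by epithelium, fell from 434 to 107 CPM (-2.02, adjusted p = 1.98e-11). The transcription factor Maf (-0.70) was not called. Without KSR23 replicate 3 the list had 8 higher and 3 lower.

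Of 7 genes of developing thymocytes, 3 fell. Rag1 had 0, 7, 3, 0 and 0 counts in WT and 0 in every KSR23 library, and Rag2 had 9, 1, 0, 1 and 0 counts in WT and 0 in every KSR23 library. Each passed the filter on low counts through 1 WT library alone, so their calls are no support for a fall of the list. The counts of both genes are near the detection limit, held by a few WT libraries, and neither gene was called by quasi-likelihood (adjusted p = 0.145 and 0.123) or DESeq2 (0.334 and 0.24). Cd1d1, which epithelium also makes, fell from 9.47 to 5.62 CPM (-0.75, adjusted p = 0.0409, or 0.09 without KSR23 replicates 1 and 4). No gene of the list was called without KSR23 replicate 1, 2, 4 or 5, and 1 was called without WT replicate 1, 2 or 3.

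**Figure D4:**
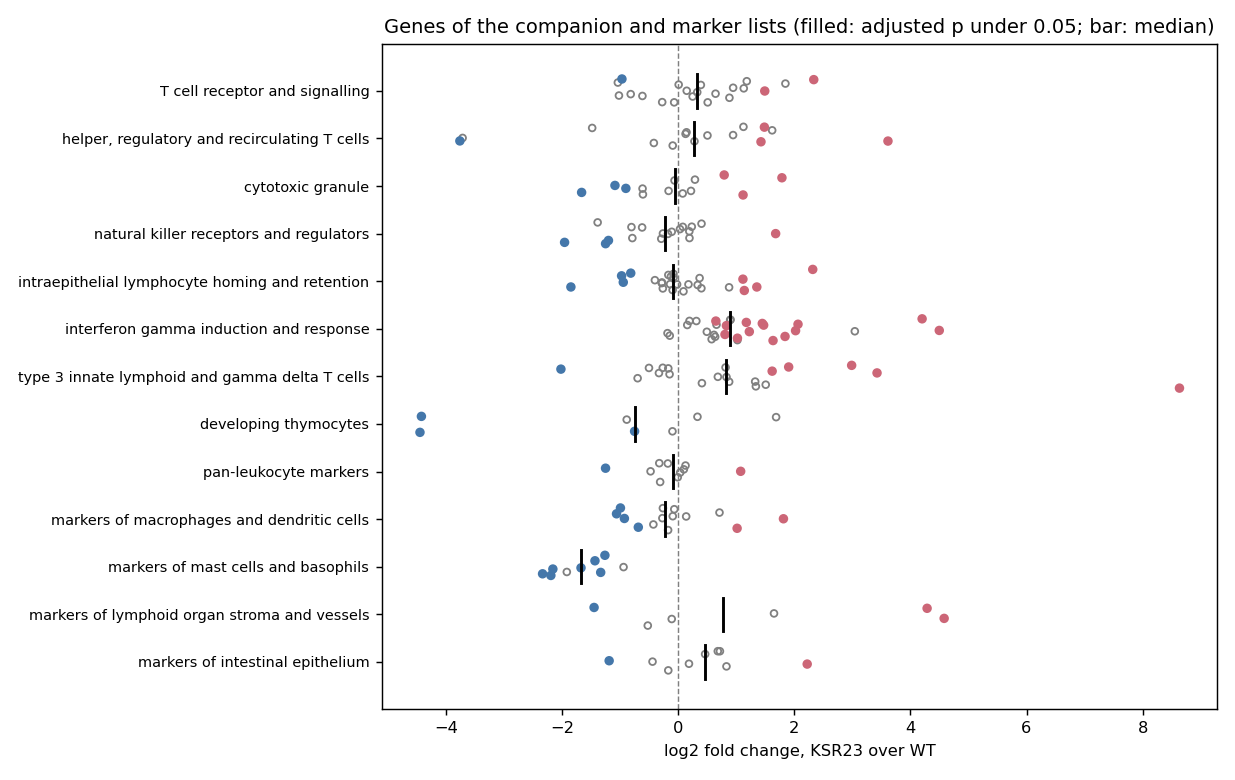
Each point is 1 gene of a list, placed at its log2 fold change of KSR23 over WT on the horizontal axis, filled red or blue where it was called higher or lower, with a black bar at the list's median. The interferon gamma list lies mostly to the right of 0 and holds no gene called lower, and the mast cell list lies to the left of 0.

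Markers of other immune cells moved beside these genes. The summed level of 10 pan-leukocyte genes was 202 to 231 CPM in WT and 147 to 220 CPM in KSR23, with 1 higher (Itgal, 1.08, adjusted p = 0.0124) and 1 lower (Cd52, -1.25, adjusted p = 0.00153). Laptm5 (0.10) and Coro1a (-0.33) were not called. Of 9 mast cell and basophil markers 7 fell and 0 rose in the edgeR likelihood ratio fit, with 8 lower and 0 higher at an unadjusted p under 0.05, and 5 fell and 0 rose by quasi-likelihood. All 9 had negative values, and their summed level was 25.2 to 43.0 CPM in WT and 5.96 to 13 CPM in KSR23. The mast cell proteases Mcpt1 (-2.19, adjusted p = 1.27e-09), Mcpt2 (-2.16, adjusted p = 9.04e-09) and Mcpt4 (-2.34, adjusted p = 0.000499) were among them. The part of mast cells or basophils in the levels of Il4, Srgn, Cd52 or the granzymes was not tested. Macrophage and dendritic cell markers summed to 890 to 1083 CPM in WT and 657 to 879 CPM in KSR23, with 2 higher and 4 lower of 14 tested. Cd68, C1qb, C1qc and Siglech fell, while Cd14 and Itgam rose, and Csf1r (-0.26) and Lyz2 (-0.27) were not called. By quasi-likelihood there were 1 higher (Cd14) and 2 lower (Cd68 and C1qb). The part of myeloid cells in the levels of Tyrobp and Fyb was not tested.

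KSR23 replicates 1 and 4 held most counts of Fcer2a and Ccl19, genes of lymphoid tissue. The sum of these 2 genes was 218 and 179 counts in those libraries, 4 to 11 counts in the other KSR23 libraries and 0 to 5 counts in WT libraries. KSR23 replicates 1 and 4 were also the deepest libraries (60948534 and 51473778 counts) and differed in epithelial genes. Cdx2 was at 6.62 and 5.77 log2 CPM there, 2.7 to 3.11 in the other KSR23 libraries and 2.65 to 5.42 in WT. Krt20 was at 9.15 and 10.2 there and at 11.1 to 11.2 in the other KSR23 libraries. What set them apart was not tested. Leaving them out therefore removes more than a difference in lymphoid genes. Without KSR23 replicates 1 and 4, the log2 fold changes were -0.81 for Cd3g (adjusted p = 0.0453), -1.0 for Cd8a (0.0607), -1.52 for Gzma (7.29e-05), 1.41 for Itgae (0.00231) and 2.96 for Ifng (0.00968). Cd8a was the called gene of the 10 that no longer passed, where 23.4% of all tested genes were called. Of 6 tested markers of lymphoid organ stroma and vessels, Ccl19 (4.29, adjusted p = 0.00891, or 0.278 without those libraries) and Fcer2a (4.58, adjusted p = 0.0143) rose and Tnfsf13b (-1.45, adjusted p = 9.23e-05) fell. Of 9 epithelial markers Krt20 rose (2.22) and Fabp2 fell (-1.19), and Fabp2 was not called without KSR23 replicates 1 and 4 (adjusted p = 0.0841).

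**Figure D5:**
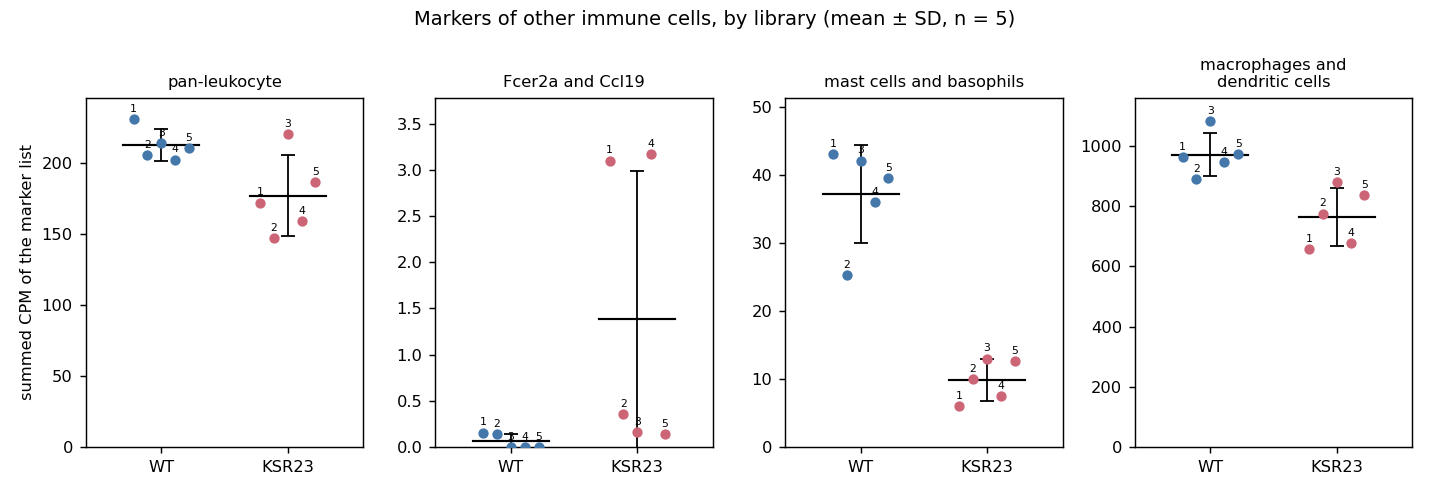
The vertical axis gives the summed CPM of each marker list by library, numbered by replicate, with bars at the mean ± SD (n = 5) and each axis cut at 0. The mast cell sum is lower in all KSR23 libraries than in all WT libraries. The macrophage and dendritic cell sum is too, but barely (lowest WT 890 CPM, highest KSR23 879 CPM). The sum of Fcer2a and Ccl19 is high in KSR23 replicates 1 and 4.

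Genes with the most similar profiles were sought by the root mean square difference of centred log2 CPM over the 10 libraries. Nearest to the mean profile of the 3 Cd3 genes were Agfg1 (0.192), Ctbp1 (0.195), Msl1 (0.199), Ghdc (0.211) and Otud5 (0.213), while Cd3d (0.272), Cd3e (0.322) and Cd3g (0.424) lay farther from their own mean. Nearest to the mean of Gzma and Gzmb were Slamf9 (0.155), Ccl24 (0.188), Calml4 (0.189), Rdm1 (0.195) and D330023K18Rik (0.2), with Gzma and Gzmb each at 0.343. None of the nearest genes is in the lymphocyte lists.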

How the data were processed

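RNA of jejunum from 5 WT and 5 KSR23 mice was copied with SMART-Seq v4 from picogram amounts and tagged with Nextera XT. No molecular identifiers were used, so the limits given for a count of 0 cover counting error only. The authors aligned single-end reads of 75 bases to mm10 with TopHat2 2.1.0 and deposited raw counts per protein-coding gene from htseq-count 0.6.1p1 (strict intersection, strand setting not stated). Rows of the counter that name no gene were left out of library totals and made up 7.87 to 11.9% of gene counts plus unassigned unique reads. No further sample columns were left unused.

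Groups came from the sample titles. The counts were analysed with edgeR 4.0.16 in R 4.3.3 (TMM scaling, at least 5 counts in at least 1 library, likelihood ratio test, Benjamini-Hochberg adjustment over 17632 genes, threshold 0.05), and the procedure was tested on simulated data. The test, adjustment and threshold are those of the study's methods, which name no scaling. Their filter can also be read as 5 counts in every library, which was run as an alternative. Further alternatives were the quasi-likelihood F test, DESeq2 1.42.0, other scalings and filters, replicates 1 to 3 alone, each library left out and a replicate block. Leaving out KSR23 replicates 1 and 4 together was chosen after seeing the data. RPKM used exon models of GENCODE M21, and promoters came from RefSeq GRCm38.p6.

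The 10 genes and all lists were chosen with earlier results of these data known. Of each list every called gene was named if 6 or fewer were called, otherwise the 3 with the smallest p in each direction, plus up to 2 of the most abundant genes not called, with Cd8b1, Itgb7, Prf1, Xcr1, Clec9a, Cdx2 and the 6 ratios added after values were seen. Some items are not reported here.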

Additional observations from a re-analysis of the deposited data

Results flagged for a closer look

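Ifng was flagged in both groups because 1 library stood far from the others on the CPM scale. In WT it was replicate 5, at 0.3004 CPM (8 counts), where the next library was at 0.0619 CPM and the gap made up 0.794 of the group's range, above Dixon's critical value of 0.71 for 5 libraries. In KSR23 it was replicate 3, at 1.153 CPM (29 counts), where the next was at 0.597 CPM and the gap made up 0.725 of the range. On the log2 scale (prior count 2), no value of the 10 genes passed that limit. Over the 20 groups of libraries examined, chance flags about 1 on each scale.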

How the results depend on the processing

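Over the alternatives run, Gzma was called in 20 of 21, Ifng in 19 of 20, Itgae in 19 of 21, Cd3g in 17 of 21 and Cd8a in 9 of 21, each with its direction kept, and Cd3d, Cd3e, Cd4 and Ncr1 in 0. With replicates 1 to 3 alone, calls went from 3261 to 579 over all genes, from 5 to 2 over the 10 genes and from 48 to 9 over the companion lists by the edgeR likelihood ratio test. By quasi-likelihood on those libraries they were 140, 0 and 3, with 3 of the 10 genes at an unadjusted p under 0.05. That alternative has 6 libraries in place of 10. Leaving out 1 library at a time gave 3 to 6 called genes of the 10 and 37 to 50 of the companion lists. Without KSR23 replicate 4, Cd3g (adjusted p = 0.0603) and Cd8a were lost, Cd8a was lost in 7 of 10 such fits (adjusted p from 0.0082 to 0.0923), and without KSR23 replicate 3 Gzmb was called (-1.14, adjusted p = 0.0364). Gzmb was also called with library totals as scaling (-1.05, adjusted p = 0.036). Without WT replicate 5, which held 8 of 12 WT counts, the log2 fold change of Ifng was 4.13. Directions that turned were those of genes not called. Cd3e ranged from -0.1776 to 0.2114, Cd4 from -0.3344 to 0.04823 and Ncr1 from -0.08995 to 0.5703 over the fits without 1 library, and with KSR23 replicates 1 and 4 both left out Cd3e was at 0.0439 and Cd4 at 0.04397. That last fit called 4 of the 10 genes. The ratio of Cd3g to Cd3d kept its sign in every fit run (-1.28 to -0.87 without 1 library). The replicate numbers are only a shared number: deviations of same-numbered libraries correlated from -0.548 to 0.248. With a replicate block the calls were 3 of the 10 genes (Cd3g and Cd8a were lost, adjusted p = 0.0741 and 0.105), 35 of the companion lists and 2202 over all genes. No WT library of the 5 correlated best with the KSR23 library of its own number. The median log2 fold change of all genes was 0.03 with TMM, 0.00 with RLE size factors and -0.03 with library totals, and the 5 called genes of the 10 kept their direction under these scalings. The filter of 5 counts in every library left 4 of the 10 genes called and removed Ifng and Ncr1, which have no value there. Ifng and Ncr1 had 0 to 42 and 4 to 28 counts per library, the fewest of the 10 genes. The cause of these shifts was not tested.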
